A study of Mus musculus with 72 samples.

Results

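Lyz1 and Lyz2, the pair of mouse genes for C-type lysozyme, were followed by messenger RNA level across all genotype and treatment groups of a study of Setd1a and Setd1b loss in murine macrophages. The pair was chosen by gene symbol, as the rows of Lyz1 and Lyz2 in the 3 deposited expression tables, and both genes were listed in each table. They were 2 of 9179 genes listed for bone marrow-derived macrophages (BMDM), 2 of 8983 listed for RAW264.7 cells given dexamethasone, and 2 of 18254 listed for RAW264.7 cells given interferon beta. A gene's place in the first pair of tables went with its mean read count, which was at least 50.12 in every gene of the BMDM table and at least 50 in every gene of the RAW264.7 table in the 6 h experiment. Levels are in TPM, the abundance of a transcript relative to all transcripts of its library, corrected for transcript length, so Lyz1 and Lyz2 can be set side by side.

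The data comprised 72 RNA-seq libraries in 24 groups of 3, stated to be biological replicates. Nothing in the sources used here says which libraries came from separate animals or cultures, so p-values measure the spread between these libraries, which may be technical. BMDM on the C57BL/6J background, matured for 7 days in medium conditioned by L929 cells, carried either the genotype label Setd1bKO or the label Setd1bHet, whose libraries are titled wild type and are called controls here. Both were given Dex (the glucocorticoid dexamethasone, 1 uM for 16 h) with LPS (bacterial lipopolysaccharide, 100 ng/ml for 6 h), LPS with 0.1% ethanol, or the vehicles alone. RAW264.7 cells, a BALB/c macrophage-like line, carried the heterozygous label Setd1aDel/+ (Setd1aDel) or were wild type. They were studied in 3 experiments. In the 16 h experiment the treatments were those of the BMDM. In the 6 h experiment Dex was given for 6 h, and groups with Dex alone were added. In the third, cells had LPS with 10 ng/ml IFNB1 for 6 h or LPS for 6 h. LPS doses are labelled per ml, while the treatment protocol gives the same number per microlitre. The labels call the BMDM female, and the culture protocol speaks of male mice. Neither the allele or Cre line behind Setd1bKO, nor the age of the mice, nor whether Setd1aDel is 1 clone is given in the sources used here. This bears on Lyz2, because the LysM-Cre allele, widely used to delete genes in mouse macrophages, is inserted in Lyz2 itself. Whether these mice carry it was not tested.

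Lysozyme cuts the glycan chains of bacterial peptidoglycan and is stored and secreted by phagocytes. In mice, Lyz2 (lysozyme M) is a hallmark transcript of macrophages, monocytes and neutrophils, and Lyz1 (lysozyme P) is known chiefly from Paneth cells of the small intestine. Lysine 4 of histone H3, whose methylation marks active promoters, is methylated by COMPASS complexes, in which Setd1a or Setd1b can serve as the enzyme. The genotype groups address what these enzymes do for macrophage transcription with and without a glucocorticoid, which acts through the glucocorticoid receptor.

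The 2 genes lie side by side on the minus strand of chromosome 10. Lyz1 (ENSMUSG00000069515.6) spans chr10:117287797-117292868 and Lyz2 (ENSMUSG00000069516.8) spans chr10:117277331-117282321 in GRCm38, each with 4 exons and a coding sequence of 447 bases in the GENCODE annotation. Their coding sequences were identical at 95.1% of positions and differed at 22, as read from the reference. The first 300 coding bases, which hold 20 of the 22 differences, are shown because TPM of the pair rest on how reads were divided between them, with capitals at the bases that differ. With introns they span chr10:117291030-117292838 for Lyz1 and chr10:117280642-117282242 for Lyz2, and they run 5′ to 3′ on the coding strand.
Lyz1 coding: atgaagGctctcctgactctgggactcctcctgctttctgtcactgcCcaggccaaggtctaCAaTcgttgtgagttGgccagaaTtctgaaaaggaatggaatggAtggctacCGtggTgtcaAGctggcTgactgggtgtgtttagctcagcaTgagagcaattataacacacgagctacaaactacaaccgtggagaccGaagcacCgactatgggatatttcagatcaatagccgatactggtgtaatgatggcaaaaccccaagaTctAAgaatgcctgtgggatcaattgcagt
Lyz2 coding: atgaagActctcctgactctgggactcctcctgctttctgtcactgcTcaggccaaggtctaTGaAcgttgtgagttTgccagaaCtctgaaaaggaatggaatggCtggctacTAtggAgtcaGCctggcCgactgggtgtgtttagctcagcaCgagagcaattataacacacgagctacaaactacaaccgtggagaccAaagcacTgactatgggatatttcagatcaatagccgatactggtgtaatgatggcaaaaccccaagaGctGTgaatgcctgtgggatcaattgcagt
Whole transcripts of 1263 bases for Lyz1 and 1316 bases for Lyz2 were 92.0% identical once aligned. Of all words of 31 bases, 34.2% of those of Lyz1 and 32.8% of those of Lyz2 were shared, and of words of 100 bases 2.06% and 1.97%. Reads within shared stretches cannot be assigned by sequence alone, so values of Lyz1 beside an abundant Lyz2 are uncertain.

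The 250 bases upstream of each RefSeq start are shown because the pair moved differently in several comparisons. They come from RefSeq on GRCm38.p6, minus strand, at chr10:117292869-117293118 for Lyz1 and chr10:117282273-117282522 for Lyz2, with capitals at bases that differ between them. The RefSeq start of Lyz2 lies inside the GENCODE gene, which reaches 117282321, so the bases nearest that start overlap the gene. The Lyz1 stretch lies just outside its GENCODE gene. Distances below are counted from the RefSeq starts.
Lyz1 upstream: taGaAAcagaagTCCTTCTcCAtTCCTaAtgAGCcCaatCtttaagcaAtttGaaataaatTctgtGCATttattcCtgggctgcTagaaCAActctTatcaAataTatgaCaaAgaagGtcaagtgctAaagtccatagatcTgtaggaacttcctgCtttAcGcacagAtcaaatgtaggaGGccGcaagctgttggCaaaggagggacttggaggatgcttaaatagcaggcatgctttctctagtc
Lyz2 upstream: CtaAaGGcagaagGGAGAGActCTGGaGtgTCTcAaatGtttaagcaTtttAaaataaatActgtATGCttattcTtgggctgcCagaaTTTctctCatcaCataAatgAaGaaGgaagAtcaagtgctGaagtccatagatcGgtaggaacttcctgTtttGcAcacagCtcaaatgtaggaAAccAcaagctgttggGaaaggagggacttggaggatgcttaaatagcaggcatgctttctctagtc
The aligned stretches were 79.4% identical over 250 bases and 92.0% identical over the 100 bases nearest the start, so most differences lay farther upstream. The ETS core AGGAAG, read on both strands and known to be bound by factors such as PU.1, was found once 99 bases upstream of both genes and again 137 bases upstream of Lyz2 alone. It was present in 29.6% of 32536 upstream windows of the same length. Lyz1 alone held the C/EBP-type word TTGCNNAA at 209 bases upstream, found in 9.57% of windows, and the word AGAACA of glucocorticoid receptor elements at 164 bases upstream, found in 16% of windows. The AP-1 word TGANTCA, found in 6.73% of windows, and TATAAA, found in 12.3% of windows, were in neither stretch. None of these words overlapped another in either stretch. A match describes these letters only.

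Depth in reads is unknown, since the tables give TPM. As a guide, the authors' deposited tables gave mean normalized counts over libraries of 205086 for Lyz2 and 74.08 for Lyz1 in BMDM, 101345 and 30.99 in the 16 h experiment, 30581 and 399.3 in the 6 h experiment, and 77250 and 31.7 in the IFNB1 experiment. Listed TPM summed to between 837032 and 912839 per library, and the lowest correlation between libraries of 1 group was 0.9829. Setd1a TPM averaged lower in every Setd1aDel group than in its wild-type group, for example 24.7 against 38.98 TPM with vehicle in the 16 h experiment (log2 change −0.63, adjusted p = 0.00226), while in the 6 h experiment no Setd1a difference passed the test (17.1 against 24.18 TPM with vehicle, adjusted p = 0.0953). Setd1b TPM was not lower in the libraries labelled Setd1bKO: it averaged 10.06 TPM in them against 4.543 TPM in controls with vehicle (log2 change +1.00, adjusted p = 0.00235). A whole-transcript TPM does not test the loss of part of a gene, and directions below hold for libraries by that label. Of 18 macrophage markers, 17 were listed in BMDM, 14 in the RAW264.7 Dex table and 16 in the IFNB1 table.

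Lyz2 was among the most abundant transcripts of most groups, and Lyz1 was a minor one in all but the wild-type cells of a single experiment. Lyz2 ranked first of 9179 listed genes in control BMDM with vehicle, where it made up 4.12% to 4.22% of listed TPM, and number 3 in BMDM labelled Setd1bKO with vehicle, at 2.78% to 2.87%. In RAW264.7 cells of the 16 h experiment it ranked first of 8983 in Setd1aDel cells with vehicle, at 2.31% to 2.44% of listed TPM, and 109th to 132nd in wild-type cells with vehicle, at 0.136% to 0.168%. Lyz1 with vehicle in the 6 h experiment ranked 8228th to 8619th in Setd1aDel cells and 419th to 434th in wild-type cells. Outside the wild-type cells of the 6 h experiment, Lyz1 reached at most 12.43 TPM in any library, while Lyz2 had at least 1217 TPM in every library. Of the 10 genes of a lysozyme family list, which also holds Lyzl1, Lyg1 and Lalba, the test took in Lyz1 and Lyz2 alone.

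**Figure D1:**
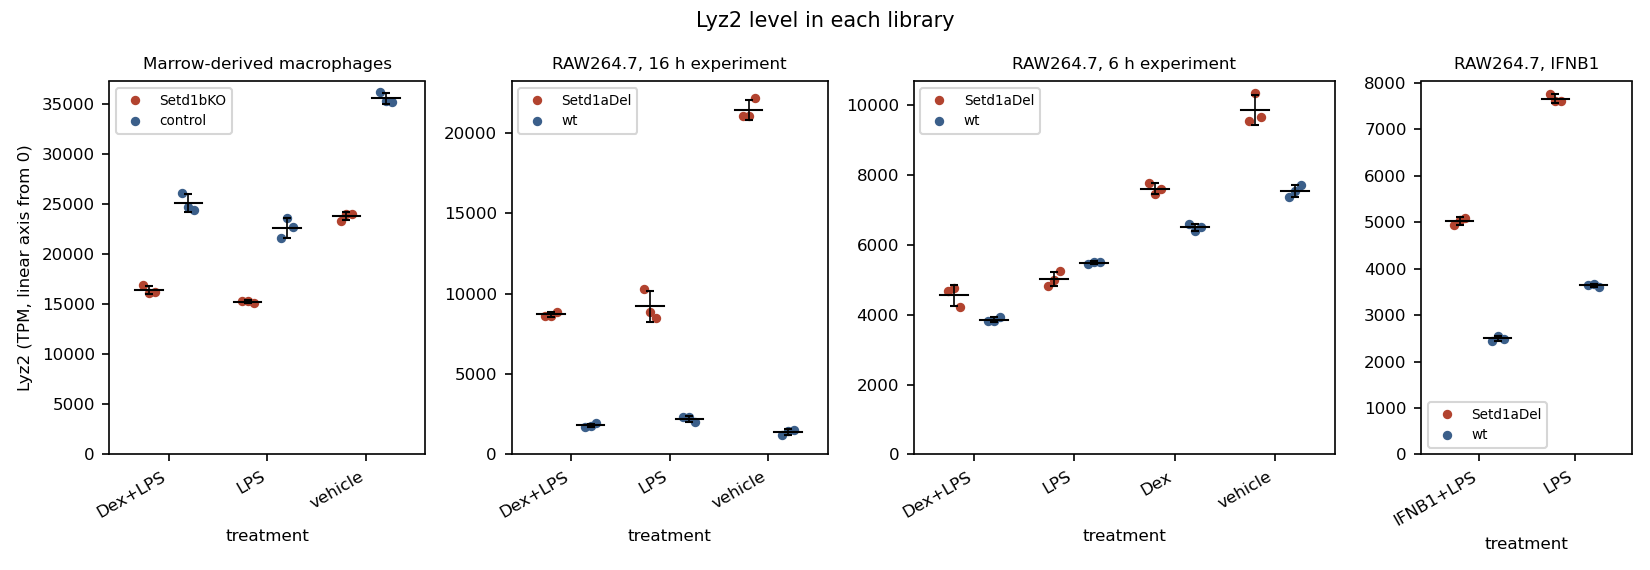
Lyz2 level in TPM (linear axis from 0) in each library of the 4 experiments, 1 point per library, with black lines at group means and bars of ± SD (n = 3). Groups run along the horizontal axis by treatment, mutant left of its control. Setd1aDel cells with vehicle in the 16 h experiment average 21388 TPM and the wild-type cells beside them 1406 TPM, while BMDM labelled Setd1bKO lie under their controls in all 3 treatments.

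With vehicle, BMDM labelled Setd1bKO had 23341, 24053 and 23962 TPM of Lyz2, against 36176, 35255 and 35191 TPM in controls. All 3 Setd1bKO libraries lay below all 3 controls, and the group means of 23785 ± 388 and 35541 ± 551 TPM (SD, n = 3 each) differed 1.49-fold. The change was −0.58 ± 0.034 (SE) on the log2(TPM + 1) scale, with adjusted p = 3.53e-09 by limma, where 25.3% of 9159 genes were called at an adjusted p under 0.05. In this bulk RNA, fewer cells expressing a gene and less RNA of it per cell cannot be told apart.

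The gap between genotypes was of like size under LPS and under Dex with LPS. With LPS, Lyz2 had 15349, 15309 and 15119 TPM in Setd1bKO libraries, against 21606, 23612 and 22660 TPM in controls, a change of −0.57 (adjusted p = 2.76e-09, limma, 41.4% of genes called). With Dex and LPS the Setd1bKO libraries had 16933, 16144 and 16179 TPM and the controls 26114, 24731 and 24402 TPM, a change of −0.61 (adjusted p = 1.25e-09, 35% called). In each treatment the 2 genotypes did not overlap. The LPS response of Lyz2 differed between genotypes by 0.01 ± 0.048 (adjusted p = 0.887), and its Dex response by −0.04 (adjusted p = 0.697).

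Lyz1, at a far lower level, did not follow Lyz2 between BMDM genotypes. With vehicle it had 10.29, 12.43 and 11.46 TPM in Setd1bKO libraries and 11.20, 11.20 and 9.696 TPM in controls, which overlapped (log2 change 0.08 ± 0.15, adjusted p = 0.742). With LPS its means were 6.795 ± 0.799 TPM in Setd1bKO libraries and 7.371 ± 0.998 TPM in controls, and with Dex and LPS 7.019 ± 0.838 TPM and 7.281 ± 2.05 TPM (SD, n = 3 each). Neither difference passed the test (log2 changes −0.10 and −0.02, adjusted p = 0.629 and 0.935), and the groups overlapped in both.

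The order of Lyz2 levels in BMDM set controls with vehicle first at 35541 TPM, then controls with Dex and LPS at 25082 ± 909 TPM, Setd1bKO with vehicle at 23785 TPM, controls with LPS at 22626 ± 1003 TPM, Setd1bKO with Dex and LPS at 16419 ± 446 TPM and Setd1bKO with LPS at 15259 ± 123 TPM. Of these neighbours, Setd1bKO with vehicle and controls with LPS overlapped. For Lyz1, both vehicle groups overlapped with each other and lay above the 4 LPS-treated groups, which overlapped among neighbours.

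In the 16 h experiment, Setd1aDel RAW264.7 cells held far more Lyz2 than wild-type cells. With vehicle Lyz2 had 21026, 21013 and 22124 TPM in Setd1aDel cells, against 1217, 1482 and 1518 TPM in wild-type cells. The means of 21388 ± 638 and 1406 ± 164 TPM (SD, n = 3 each) differed 15.2-fold, and no Setd1aDel library came near a wild-type one. The log2 change of +3.93 ± 0.086 (adjusted p = 1.24e-14, limma) was the fourth highest of 8964 genes tested, of which 48.2% were called.

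Lyz1 was higher in the same cells, from a level close to the lower end of the table. With vehicle it had 7.100, 5.617 and 6.891 TPM in Setd1aDel cells, against 0.2218, 0.9765 and 0.5351 TPM in wild-type cells, with no overlap. On the log2(TPM + 1) scale, which understates the change of so low a gene, the difference was +2.28 ± 0.16 (adjusted p = 1.57e-08), and the means differed 11.3-fold. Wild-type libraries of this experiment lay between 0.2218 and 1.003 TPM. Lyz1 thus passed the filter of 1 TPM in 3 or more libraries through the Setd1aDel libraries, the group where it is high. With vehicle Lyz1 made up 0.03054% of the summed TPM of the pair in Setd1aDel cells and 0.03977% in wild-type cells. Whether reads of Lyz2 counted for Lyz1 enter the Lyz1 difference was not tested.

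Both genes stayed higher in Setd1aDel cells under treatment. With LPS, Lyz2 had 10289, 8868 and 8463 TPM in Setd1aDel cells and 2312, 2318 and 1993 TPM in wild-type cells (log2 change +2.06, adjusted p = 1.41e-11, 59.9% of genes called), a 4.17-fold difference. Lyz1 had 3.325, 2.623 and 2.766 TPM and 0.6027, 0.6639 and 1.003 TPM in the same 2 groups (log2 change +1.16, adjusted p = 1.29e-05). With LPS, then, neither gene overlapped between the genotypes. With Dex and LPS, Lyz2 had 8627, 8614 and 8871 TPM in Setd1aDel cells and 1708, 1768 and 1930 TPM in wild-type cells (log2 change +2.27, adjusted p = 3.47e-12, 64.6% of genes called). There too Lyz1 was higher, with 2.398, 2.503 and 2.028 TPM in Setd1aDel cells against 0.9342, 0.3973 and 0.7525 TPM in wild-type cells (log2 change +0.98, adjusted p = 5.91e-05). Here too the genotypes did not overlap. In the order of Lyz2 levels, Setd1aDel with LPS (9207 ± 959 TPM) and with Dex and LPS (8704 ± 145 TPM) overlapped, and the 3 wild-type groups stood apart from each other at 2208 ± 186, 1802 ± 115 and 1406 ± 164 TPM with LPS, Dex and LPS, and vehicle. The 3 wild-type groups of Lyz1 overlapped at means of 0.7564, 0.6946 and 0.5778 TPM.

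**Figure D2:**
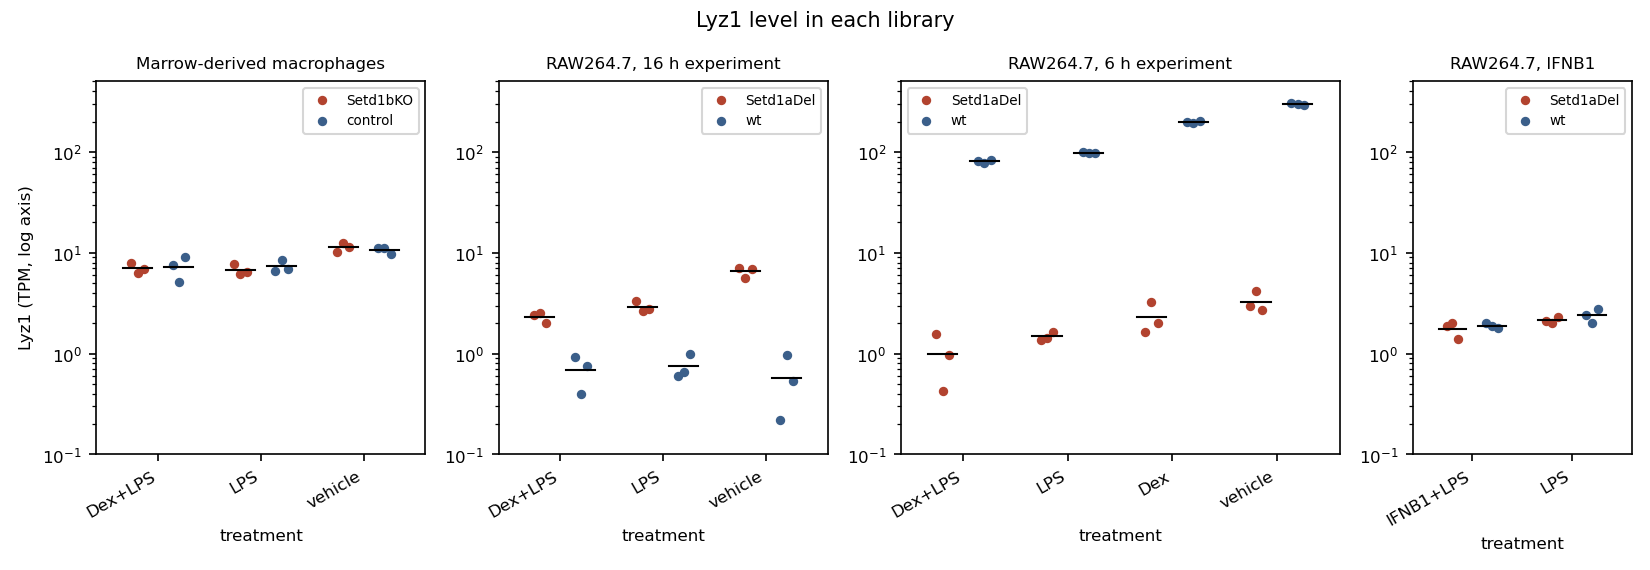
Lyz1 level in TPM (log axis) in each library of the 4 experiments, 1 point per library, with black lines at group means (n = 3). The wild-type cells of the 6 h experiment stand between 78.63 and 304.2 TPM, above every other library, the highest of which has 12.43 TPM.

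In the 6 h experiment the pair went separate ways: Lyz1 was high in wild-type RAW264.7 cells and nearly absent from Setd1aDel cells, while Lyz2 was abundant in both. With vehicle Lyz1 had 2.969, 4.150 and 2.738 TPM in Setd1aDel cells, against 304.2, 295.9 and 293.9 TPM in wild-type cells. The means of 3.286 ± 0.757 and 298.0 ± 5.48 TPM differed 90.7-fold. The log2 change was −6.14 ± 0.17 (adjusted p = 8.28e-16, limma, 22.2% of 8981 genes called). The table holds genes with a mean count of at least 50 in the 6 h experiment, and Lyz1, with a mean of 399.3, reached that through the wild-type libraries. Its place among the genes tested thus depended on the group where it is high, and its rank among them is not read here.

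Lyz1 was again far lower in Setd1aDel cells in the other 3 treatments. With LPS, Lyz1 had 1.376, 1.421 and 1.656 TPM in Setd1aDel cells and 100.0, 96.76 and 97.71 TPM in wild-type cells (log2 change −5.32, adjusted p = 9.84e-15, 21.5% of genes called). With Dex and LPS the values were 1.574, 0.4284 and 0.9760 TPM in Setd1aDel cells and 80.93, 78.63 and 82.60 TPM in wild-type cells (log2 change −5.40, adjusted p = 7.51e-15, 26.2% called). With Dex alone they were 1.641, 3.247 and 2.024 TPM in Setd1aDel cells and 197.5, 194.5 and 202.6 TPM in wild-type cells (log2 change −5.94, adjusted p = 1.51e-15, 13.6% called). The 4 wild-type groups did not overlap in Lyz1, in the order vehicle, Dex, LPS, and Dex with LPS, while each of the 4 Setd1aDel groups overlapped with its neighbour in the same order.

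Lyz2 differed little between the same genotypes. With vehicle it had 9543, 10342 and 9655 TPM in Setd1aDel cells and 7358, 7532 and 7708 TPM in wild-type cells, a 1.31-fold difference without overlap (log2 change +0.39 ± 0.040, adjusted p = 9.71e-07). With Dex alone the values were 7761, 7441 and 7601 TPM in Setd1aDel cells and 6592, 6389 and 6501 TPM in wild-type cells (log2 change +0.23, adjusted p = 0.000617). With Dex and LPS they were 4677, 4753 and 4217 TPM in Setd1aDel cells and 3814, 3819 and 3936 TPM in wild-type cells (log2 change +0.24, adjusted p = 0.00022). In these 3 treatments Lyz2 was higher in Setd1aDel cells.

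With LPS alone the difference had the other sign: 4826, 4989 and 5247 TPM in Setd1aDel cells and 5454, 5497 and 5517 TPM in wild-type cells (log2 change −0.13, adjusted p = 0.0264, limma). The groups did not overlap, yet the call was lost when any library but Setd1aDel replicate 3 was left out, with changes between −0.13 and −0.10 and adjusted p between 0.0548 and 0.123. The 4 highest Lyz2 groups were Setd1aDel with vehicle (9847 ± 433 TPM), Setd1aDel with Dex (7601 ± 160 TPM), wild type with vehicle (7533 ± 175 TPM) and wild type with Dex (6494 ± 102 TPM), of which the middle pair overlapped. The 4 groups with LPS followed at 5489 ± 32.1 TPM in wild type with LPS, 5021 ± 212 and 4549 ± 290 TPM in Setd1aDel with LPS and with Dex and LPS, and 3856 ± 68.6 TPM in wild type with Dex and LPS, with no overlap between neighbours.

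**Figure D3:**
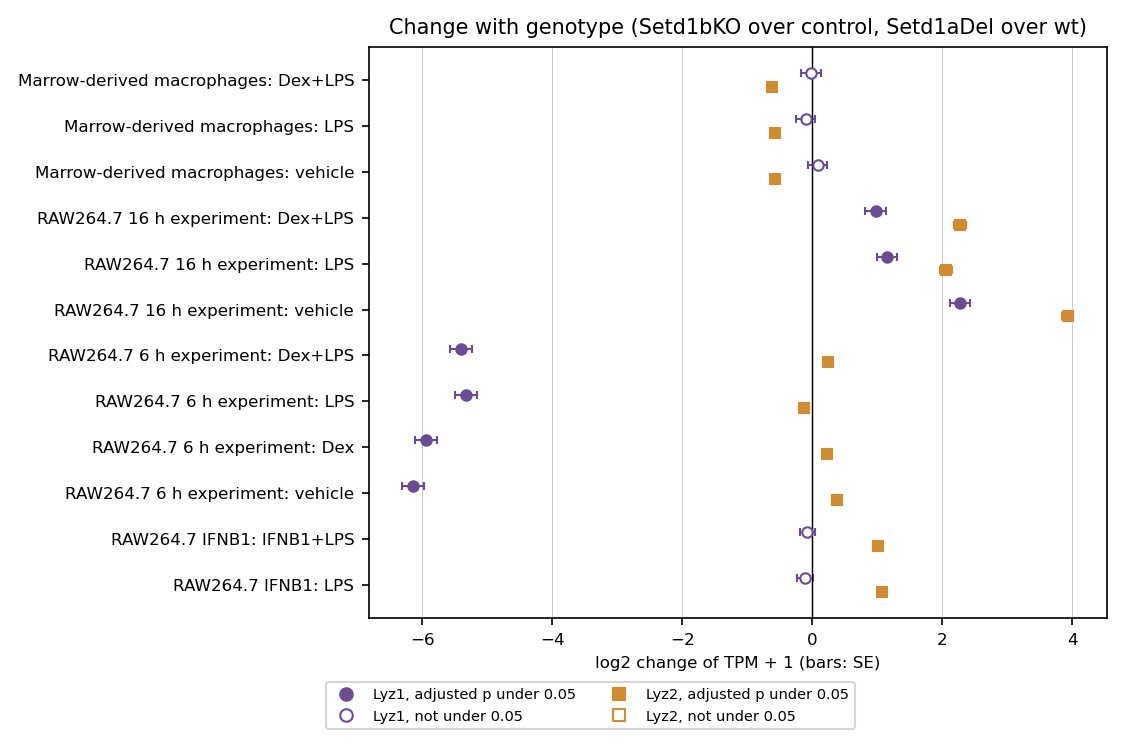
Change of Lyz1 and Lyz2 with genotype, mutant over its control, on the log2(TPM + 1) scale, for each experiment and treatment, with bars of ± SE from the limma fit. Filled points passed an adjusted p under 0.05. Lyz1 lies between −6.14 and −5.32 in the 6 h experiment and between +0.98 and +2.28 in the 16 h experiment, while Lyz2 lies between −0.13 and +0.39 in the 6 h experiment and between +2.06 and +3.93 in the 16 h experiment.

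The 16 h and 6 h experiments stand in the same table, so 1 fit of both, chosen after seeing the data, tested whether the genotype changes differed. With vehicle the genotype change was higher in the 16 h experiment by 8.42 ± 0.24 for Lyz1 (adjusted p = 2.13e-23) and by 3.55 ± 0.094 for Lyz2 (adjusted p = 4.46e-24), where 23.2% of genes were called. With LPS the differences were 6.48 (adjusted p = 3e-20) for Lyz1 and 2.19 (adjusted p = 1.22e-18) for Lyz2, with 41.3% of genes called. With Dex and LPS they were 6.38 (adjusted p = 4.79e-20) for Lyz1 and 2.04 (adjusted p = 7.58e-18) for Lyz2, with 46.5% called. Lyz1 stood among the genes tested through the wild-type libraries of the 6 h experiment, so its p-values here are not independent of its high level there.

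Levels of Lyz1 differed between the experiments chiefly in wild-type cells, and levels of Lyz2 in both genotypes. With vehicle, Lyz1 averaged 6.536 ± 0.803 TPM in Setd1aDel cells of the 16 h experiment and 3.286 ± 0.757 TPM in those of the 6 h experiment, against 0.5778 ± 0.379 and 298.0 ± 5.48 TPM in wild-type cells. Lyz2 averaged 21388 ± 638 and 9847 ± 433 TPM in Setd1aDel cells of the same experiments, against 1406 ± 164 and 7533 ± 175 TPM in wild-type cells. LPS was given at the same labelled dose and time in the 16 h, 6 h and IFNB1 experiments. With it Lyz1 averaged 2.905, 1.484 and 2.133 TPM in Setd1aDel cells, in that order, against 0.7564, 98.16 and 2.400 TPM in wild-type cells, and Lyz2 averaged 9207, 5021 and 7658 TPM against 2208, 5489 and 3638 TPM. The IFNB1 table was made apart from the other, so its levels are only set beside them. The experiment and the time in vehicle cannot be told apart here.

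In the IFNB1 experiment Lyz2 was again higher in Setd1aDel cells and Lyz1 was low in both genotypes. With LPS and IFNB1, Lyz2 had 4930, 5036 and 5091 TPM in Setd1aDel cells, against 2442, 2557 and 2492 TPM in wild-type cells (log2 change +1.01, adjusted p = 5.68e-11, limma, 54.2% of 10923 genes called). With LPS alone it had 7760, 7616 and 7599 TPM in Setd1aDel cells, against 3640, 3670 and 3606 TPM in wild-type cells (log2 change +1.07 ± 0.023, adjusted p = 3.78e-11, 42.6% called). The genotypes did not overlap in either treatment, and neither did neighbours in the order of the 4 groups.

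Lyz1 had 1.9, 2.0 and 1.4 TPM in Setd1aDel cells and 2.0, 1.9 and 1.8 TPM in wild-type cells with LPS and IFNB1, and 2.1, 2.0 and 2.3 TPM in Setd1aDel cells and 2.4, 2.0 and 2.8 TPM in wild-type cells with LPS. All 4 groups overlapped with their neighbours, and neither genotype difference passed the test (log2 changes −0.07 and −0.11, adjusted p = 0.62 and 0.485).

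As deposited, Lyz2 was lower with LPS in 5 of the 6 genotype groups where it was set against vehicle, and the remaining one, wild-type cells of the 16 h experiment, had more Lyz2 with LPS. LPS, which signals through TLR4, also moved the level of most genes: the median change of all genes lay between −0.49 and −0.21, and median-of-ratios scaling brought these medians to about 0. Each LPS change below is therefore given with its value after that scaling, and an adjusted p belongs to the unscaled change unless it follows a scaled one. Il1b, an LPS-induced cytokine gene, rose in all 6 groups, for example in Setd1bKO BMDM, which averaged 17447 TPM with LPS and 20.59 TPM with vehicle.

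In BMDM, the change of Lyz2 with LPS against vehicle was −0.64 ± 0.034 in Setd1bKO (adjusted p = 4.51e-11, 83.1% of genes called) and −0.65 in controls (adjusted p = 3.3e-11, 85.3% called), beside medians of all genes of −0.37 and −0.49. After scaling the Lyz2 changes were −0.24 in Setd1bKO, still called, and −0.11 in controls (adjusted p = 0.0654). Lyz1 fell as deposited, by 0.67 in Setd1bKO (adjusted p = 0.000738) and fell by 0.49 in controls (adjusted p = 0.00738), and after scaling neither Lyz1 change passed the test (−0.31, adjusted p = 0.085, and −0.0036, adjusted p = 0.984). The test of a genotype difference in the LPS response called 21.8% of genes and neither Lyz1 (−0.18, adjusted p = 0.584) nor Lyz2. After scaling these differences were −0.31 and −0.13, still not called.

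The LPS response of both genes differed between the genotype groups of the 16 h experiment. Lyz2 averaged 9207 TPM with LPS and 21388 TPM with vehicle in Setd1aDel cells (log2 change −1.22 ± 0.086, adjusted p = 1.63e-09, 84.8% of genes called), and the change was −0.78 after scaling. In wild-type cells it averaged 2208 TPM with LPS and 1406 TPM with vehicle (log2 change +0.65, adjusted p = 3.39e-06, 83.5% called), and the change was +1.07 after scaling. The responses thus had opposite signs, and their difference was −1.88 ± 0.12 (adjusted p = 8e-09), in a test that called 33.4% of genes, and −1.84 after scaling. Lyz1 fell by 0.95 in Setd1aDel cells (adjusted p = 3.91e-05, −0.59 after scaling) and had a change of +0.18 in wild-type cells (adjusted p = 0.308), which was +0.32 after scaling, still not called. The difference was −1.12 ± 0.22 (adjusted p = 0.00105), and −0.91 after scaling. Without the second wild-type vehicle library, which held the highest Lyz1 of its group, the wild-type change was +0.35 (adjusted p = 0.0406).

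LPS lowered both genes in both genotypes of the 6 h experiment. Lyz2 fell by 0.97 in Setd1aDel cells (adjusted p = 3.04e-14, 69.6% of genes called, −0.75 after scaling) and fell by 0.46 in wild-type cells (adjusted p = 4.24e-09, 71.8% called, −0.19 after scaling). The fall was larger in Setd1aDel cells, with a difference of −0.52 ± 0.057 (adjusted p = 1.03e-05) where 5.6% of genes were called, and −0.56 after scaling. Lyz1 fell by 0.77 in Setd1aDel cells (adjusted p = 0.000374, −0.63 after scaling) and fell by 1.59 in wild-type cells (adjusted p = 4.77e-08, −1.33 after scaling), a difference of +0.82 ± 0.24 (adjusted p = 0.0465). Leaving out 1 of the 12 libraries at a time, that call on Lyz1 was lost in 11 fits (differences from 0.73 to 0.85, adjusted p from 0.0696 to 0.108) and kept without Setd1aDel vehicle replicate 2 (0.96, adjusted p = 0.0265). It was also lost after scaling (0.70, adjusted p = 0.1), with the replicate number as a block (adjusted p = 0.0667) and with a pseudocount of 0.1 (0.52, adjusted p = 0.528).

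Between the experiments, the LPS response of wild-type cells was higher in the 16 h experiment by 1.77 for Lyz1 (adjusted p = 3.97e-07) and 1.11 for Lyz2 (adjusted p = 3.19e-11), where 37.7% of genes were called, and by 1.66 and 1.25 after scaling. In Setd1aDel cells, where 49.6% of genes were called, the differences were −0.17 for Lyz1 (adjusted p = 0.571, +0.04 after scaling) and −0.25 for Lyz2 (adjusted p = 0.028). The last one was −0.02 after scaling (adjusted p = 0.886). Leaving out 6 of its 12 libraries one at a time ended the call, with differences from −0.24 to −0.19 in those fits. Those 6 were replicate 3 of vehicle and replicates 2 and 3 of LPS in the 16 h experiment, and replicates 1 and 3 of vehicle and 3 of LPS in the 6 h experiment.

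**Figure D4:**
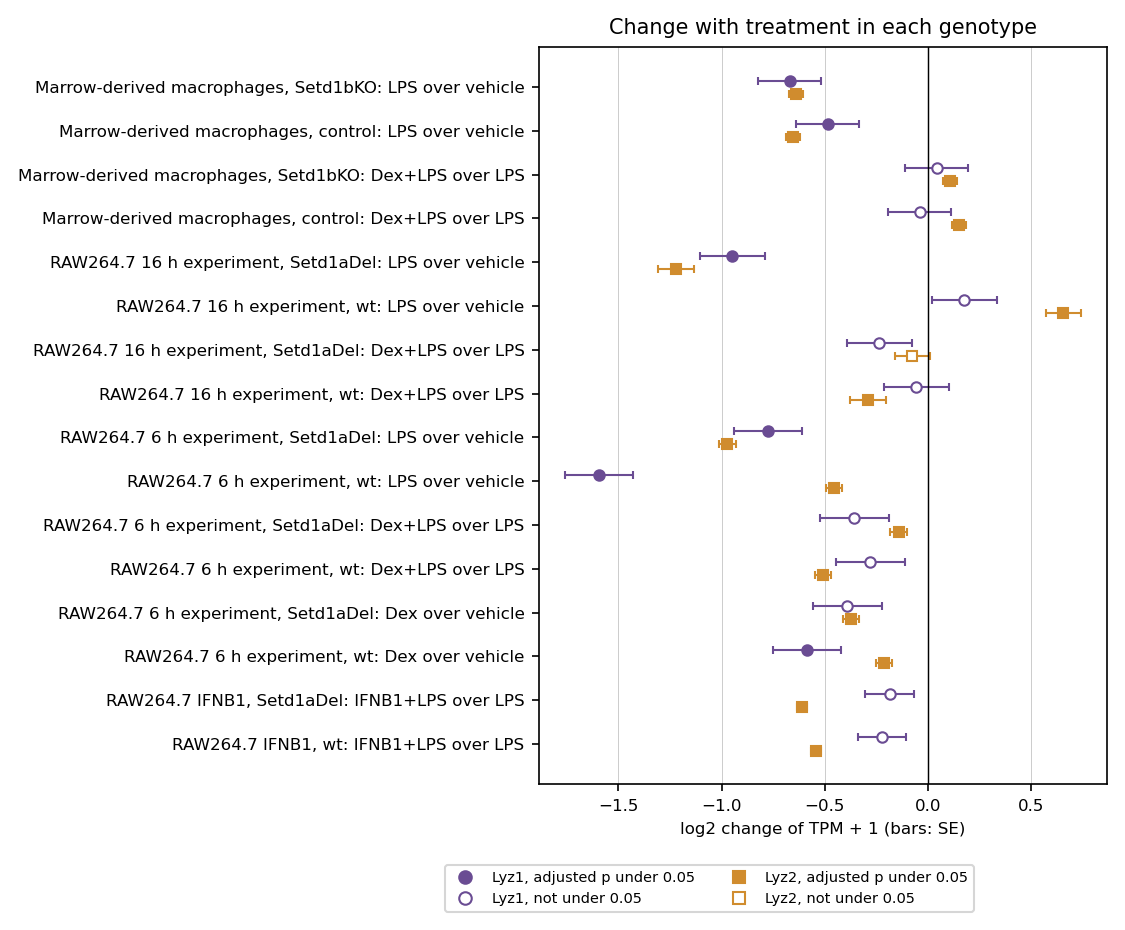
Change of Lyz1 and Lyz2 with each treatment, on the log2(TPM + 1) scale, by experiment and genotype, with bars of ± SE from the limma fit. Filled points passed an adjusted p under 0.05. Lyz2 of wild-type cells in the 16 h experiment is at +0.65 with LPS, opposite in sign to the Setd1aDel cells at −1.22, and Lyz1 of wild-type cells in the 6 h experiment has the lowest LPS change at −1.59.

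Dex changed Lyz2 modestly, and under LPS the sign in unscaled TPM differed between RAW264.7 cells and BMDM. The BMDM sign did not hold after scaling, and the authors' deposited fold changes for BMDM, given below, had the other sign. Dex with LPS gave less Lyz2 than LPS in the 6 h experiment: 4549 ± 290 against 5021 ± 212 TPM in Setd1aDel cells (log2 change −0.14, adjusted p = 0.00943, 32.9% of genes called) and 3856 ± 68.6 against 5489 ± 32.1 TPM in wild-type cells (log2 change −0.51, adjusted p = 1.02e-08, 25.3% called). The response was smaller in Setd1aDel cells, by +0.37 ± 0.057 (adjusted p = 0.00128, 5.29% called). The Setd1aDel call was lost without LPS replicate 3 (−0.11, adjusted p = 0.0609), without Dex and LPS replicate 3 (−0.09, adjusted p = 0.0617) and with only the 2 groups in the fit (adjusted p = 0.13). With Dex alone Lyz2 also fell by 0.37 in Setd1aDel cells (adjusted p = 6.51e-07, 30.2% called) and fell by 0.21 in wild-type cells (adjusted p = 0.00034, 36.8% called).

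Lyz1 of the 6 h experiment fell by 0.59 with Dex alone in wild-type cells (adjusted p = 0.00923), at 198.2 ± 4.09 TPM with Dex against 298.0 ± 5.48 TPM with vehicle. These 2 wild-type groups did not overlap. With a pseudocount of 0.1 the change stayed at −0.59 and the call was lost (adjusted p = 0.107), in a fit whose spread comes from all groups. Under LPS its Dex changes were −0.36 in Setd1aDel cells (adjusted p = 0.11) and −0.28 in wild-type cells (adjusted p = 0.241), although the wild-type libraries with Dex and LPS (80.72 ± 1.99 TPM) all lay below those with LPS (98.16 ± 1.68 TPM). With only these 2 groups in the fit the wild-type change was called (adjusted p = 0.00285). Without Dex and LPS replicate 1 the Setd1aDel change was −0.56 (adjusted p = 0.0109). With Dex alone the Setd1aDel change was −0.39 (adjusted p = 0.0845), and −0.59 without Dex replicate 2 (adjusted p = 0.011).

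In the 16 h experiment Lyz2 fell by 0.29 with Dex under LPS in wild-type cells (adjusted p = 0.0117, 47.6% of genes called). Setd1aDel cells had a change of −0.08 (adjusted p = 0.504, 44.7% called), and the difference between genotypes of 0.22 did not pass the test (adjusted p = 0.3, 10.6% called). Lyz1 changes were −0.24 in Setd1aDel cells (adjusted p = 0.239) and −0.06 in wild-type cells (adjusted p = 0.792). In BMDM, Dex with LPS gave slightly more Lyz2 than LPS as deposited, by 0.11 in Setd1bKO (adjusted p = 0.0176, 52.7% called) and 0.15 in controls (adjusted p = 0.00161, 59.9% called). The median of all genes was 0.15 and 0.18 higher in these comparisons, and after scaling the Lyz2 changes had the other sign, at −0.08 and −0.07 (adjusted p = 0.272 and 0.317). The Setd1bKO call was also lost without LPS replicate 3 (0.10, adjusted p = 0.05) and without Dex and LPS replicate 1 (0.08, adjusted p = 0.0655). Lyz1 changes there were 0.04 and −0.04 (adjusted p = 0.839 and 0.833). The genotype test of the Dex response called 6.21% of genes and neither lysozyme gene.

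For Dex with LPS against LPS, the authors' deposited tables hold log2 fold changes of their own. For Lyz2 the authors' deposited table for the 6 h experiment gave −0.21 in Setd1aDel cells (adjusted p = 1.06e-07) and −0.56 in wild-type cells (adjusted p = 3.8e-51). For the 16 h experiment the authors' deposited table gave Lyz2 −0.15 in Setd1aDel cells (adjusted p = 0.195) and −0.41 in wild-type cells (adjusted p = 2.97e-06). In BMDM the authors' deposited table gave Lyz2 −0.08 in Setd1bKO and −0.07 in controls, with adjusted p of 0.284 and 0.303, the sign seen after scaling. For Lyz1 the authors' deposited table called 1 of these contrasts, −0.33 in wild-type cells of the 6 h experiment (adjusted p = 4.32e-05).

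IFNB1, a type I interferon that induces genes such as Isg15, lowered Lyz2 under LPS in both genotypes. Lyz2 averaged 5019 ± 82.2 TPM with IFNB1 and LPS against 7658 ± 88.1 TPM with LPS in Setd1aDel cells (log2 change −0.61 ± 0.023, adjusted p = 3.72e-09, 54.1% of genes called, −0.42 after scaling). In wild-type cells it averaged 2497 ± 58.0 TPM against 3638 ± 32.1 TPM (log2 change −0.54, adjusted p = 2.16e-08, 33% called, −0.46 after scaling). The groups did not overlap in either genotype, and the difference between the responses, −0.07 ± 0.033, did not pass the test (adjusted p = 0.214, 11.3% called, +0.04 after scaling). Lyz1 changes were −0.19 in Setd1aDel cells (adjusted p = 0.21) and −0.22 in wild-type cells (adjusted p = 0.175).

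The share of Lyz1 in the summed TPM of the pair does not move with overall scaling, and it sets the 6 h wild-type cells apart. With vehicle it was 0.03319% ± 0.00615 in Setd1aDel cells and 3.807% ± 0.151 in wild-type cells of the 6 h experiment (SD, n = 3 each). Over its 4 treatments the share differed by −2.615 percentage points in Setd1aDel cells, with p = 1.25e-05 by a two-sided exact permutation test within treatments, the smallest it can give, and adjusted p = 0.00015 over the 12 tests of shares. In BMDM the share was higher in Setd1bKO, at 0.04783% ± 0.00378 against 0.03009% ± 0.00224 in controls with vehicle, and by 0.01445 points over the 3 treatments (exact permutation p = 0.00025, the smallest possible, adjusted p = 0.0015). Lyz1 was not called between these genotypes and Lyz2 was lower, so the share difference is not separate from that of Lyz2. In the IFNB1 experiment the share was lower in Setd1aDel cells, at 0.02786% ± 0.00212 against 0.06599% ± 0.0116 in wild-type cells with LPS, and differed by −0.03949 points over both treatments (exact permutation p = 0.005, the smallest possible, adjusted p = 0.02). Lyz1 was not called between genotypes there either, and Lyz2 was higher. With IFNB1 and LPS against LPS alone the share differed there by 0.008745 points over both genotypes (exact permutation p = 0.05, adjusted p = 0.1), and by 0.0117 points with adjusted p = 0.03 without wild-type LPS replicate 3.

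Shares overlapped in the 16 h experiment, at 0.03054% ± 0.00355 in Setd1aDel and 0.03977% ± 0.0241 in wild-type cells with vehicle, and the difference of −0.008277 points over 3 treatments did not pass the exact permutation test (adjusted p = 0.282). Within the 6 h experiment the wild-type share was 1.757% ± 0.0383 with LPS, 2.05% ± 0.0304 with Dex and LPS and 2.962% ± 0.0568 with Dex, against 3.807% with vehicle, and none of these wild-type groups overlapped with vehicle. Over both genotypes the share differed by −1.027 points with LPS and by −0.424 points with Dex (exact permutation p = 0.035 and adjusted p = 0.084 for each, over 12 tests). With the wild-type shares fully separated, that p was set by the order of the far smaller Setd1aDel shares, so it is no measure of the wild-type change. Without 1 library, vehicle replicate 3 of Setd1aDel for LPS or Dex replicate 2 of Setd1aDel for Dex, each had an adjusted p of 0.03. In Setd1aDel cells of all 3 experiments, in wild-type cells of the 16 h experiment and in BMDM the mean share lay between 0.02193% and 0.04783%. Reads shared by the 2 genes were not resolved here, so a share this small is uncertain.

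**Figure D5:**
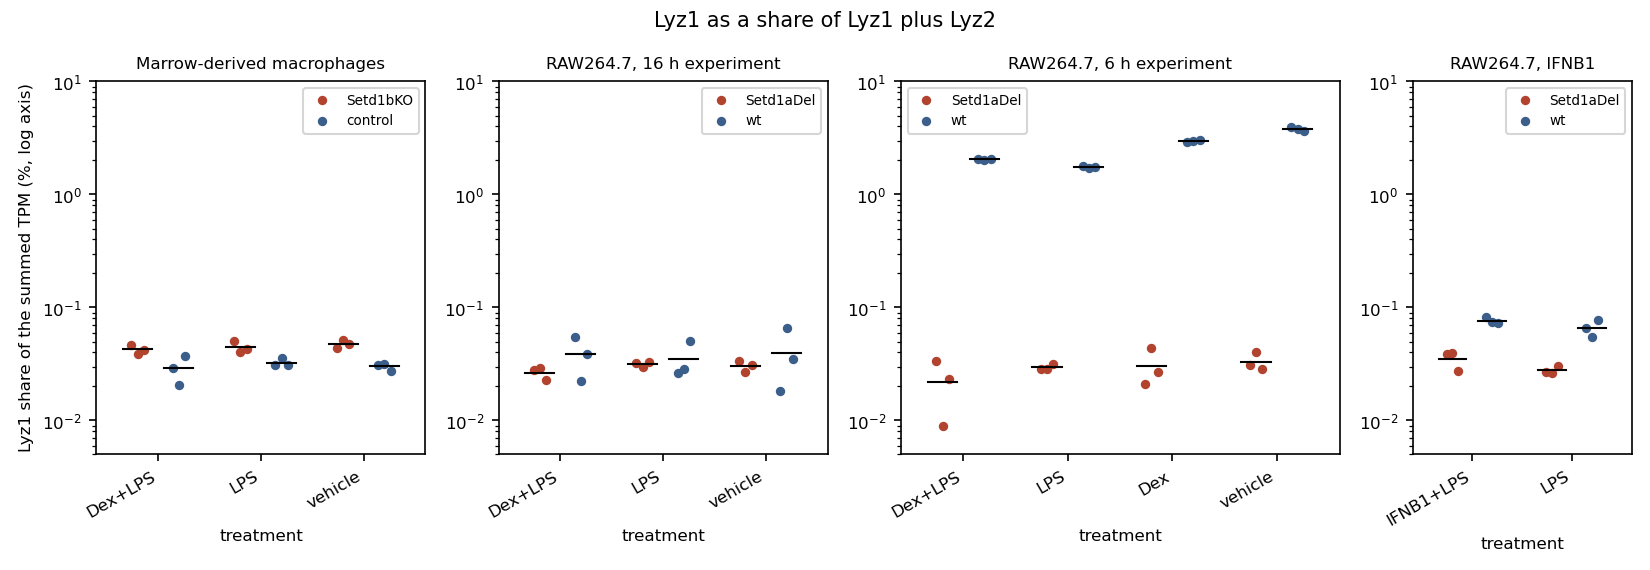
Share of Lyz1 in the summed TPM of Lyz1 and Lyz2, in percent on a log axis, 1 point per library, with black lines at group means (n = 3). Wild-type cells of the 6 h experiment lie between 1.73% and 3.97%, while no other library lies above 0.08185%.

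Other genes of the lysozyme setting were read from lists of antibacterial effectors, peptidoglycan sensors, myeloid transcription factors and macrophage markers, beside the same counts over all genes. With vehicle, BMDM labelled Setd1bKO had 9 lower and 2 higher of 17 tested antibacterial effectors, with a median change of −0.29 against −0.02 for all genes, of which 15.4% were called lower and 9.89% higher. Mpeg1, a pore-forming protein of phagosomes, averaged 133.3 TPM in Setd1bKO and 1102 TPM in controls (−3.04 ± 0.052). Cybb, the catalytic subunit of the phagocyte NADPH oxidase, averaged 93.12 and 451.1 TPM (−2.27), and its partner Ncf1 74.23 and 138.3 TPM (−0.89), while Ncf4 was not called (−0.03).

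Of 8 tested peptidoglycan sensors, 2 were lower and 2 higher in Setd1bKO BMDM with vehicle, where 15.4% of all genes were lower and 9.89% higher. Tlr2, a receptor for bacterial lipoproteins, averaged 16.51 TPM in Setd1bKO and 24.27 TPM in controls (−0.53), and the endolysosomal transporter Slc15a3 changed by −0.46. Nod1, which senses peptidoglycan fragments in the cytosol, changed by +0.28. Of 14 transcription factors, 5 were lower and 0 higher, among them Maf (−0.96), Bhlhe40 (−0.69) and Cebpa (−0.58), the gene of C/EBP alpha. Spi1, the gene of PU.1, averaged 301.6 and 286.4 TPM and was not called (adjusted p = 0.124).

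Of 17 macrophage markers tested in BMDM with vehicle, 12 were lower in Setd1bKO and 1 was higher. Among all genes 15.4% were called lower and 9.89% higher. Cd5l changed by −3.24, Fcgr1 by −2.50 and Adgre1, the gene of F4/80, by −1.36, while Ctsd and Fcer1g were not called (0.08 and 0.03). The summed TPM of all 17 still lay at 31664 to 32625 in Setd1bKO and 32453 to 33077 in controls, since abundant markers such as Ctsd set the sum. Of 14 neutrophil markers, whose cells also express Lyz2, 3 were listed, and their sum was 50 to 56.44 TPM in Setd1bKO against 103.5 to 106.7 TPM in controls. With LPS the neutrophil sum was 177.2 to 201.3 TPM in Setd1bKO against 203.5 to 209.2 TPM in controls. With Dex and LPS it was higher in Setd1bKO, at 464.5 to 534.4 TPM against 308.5 to 343.1 TPM in controls, while Lyz2 was lower there. The 1 dendritic cell marker listed, Itgax, lay at 36.61 to 38.79 TPM in Setd1bKO and 68.97 to 73.11 TPM in controls with vehicle, and lower in Setd1bKO in the other 2 treatments too. No monocyte, lymphoid or stromal marker was in the BMDM table used here. The part of these cells in the Lyz2 difference was not tested.

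With vehicle in the 16 h experiment, where 15.3% of all genes were called higher in Setd1aDel cells and 32.9% lower, 11 of 16 tested antibacterial effectors were higher and 1 lower, with a median of +0.35 against −0.08 for all genes. After scaling the counts over all genes were 1973 higher and 1884 lower, against 1368 and 2953 as deposited. Slpi, a secreted protease inhibitor, averaged 64.53 TPM in Setd1aDel cells and 4.199 TPM in wild-type cells (+3.73), Cybb 349.9 and 47.39 TPM (+2.86), and Acod1, which makes itaconate, 5.865 and 0.3303 TPM (+2.37). Tlr2 changed by +0.86 as 1 of 4 higher among 6 peptidoglycan sensors, with 0 lower. Of 12 transcription factors, 7 were higher and 1 lower, with Klf4 at +1.68 and Cebpa at +1.66, against Bhlhe40 at −0.72.

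Of 14 macrophage markers tested there, 11 were higher in Setd1aDel cells and 1 lower, where 15.3% of all genes were higher and 32.9% lower. The scavenger receptor gene Msr1 averaged 374.8 TPM in Setd1aDel and 18.77 TPM in wild-type cells (+4.25), and Itgam changed by +1.66, while Cd68 was not called (−0.04). The summed markers lay at 5581 to 5701 TPM in Setd1aDel and 3601 to 3934 TPM in wild-type cells. Cx3cr1, the monocyte marker listed, lay at 239.6 to 248.8 TPM in Setd1aDel and 58.91 to 65.66 TPM in wild-type cells, and the neutrophil marker listed, S100a8, at 2.191 to 2.566 and 2.224 to 4.074 TPM. Under treatment S100a8 was far apart: with LPS it lay at 98.46 to 106.3 TPM in Setd1aDel and 4.915 to 5.45 TPM in wild-type cells, and with Dex and LPS at 316.8 to 384.3 and 19.99 to 22.13 TPM. The part of these differences in the Lyz2 difference was not tested.

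With vehicle in the 6 h experiment, where Lyz1 fell and Lyz2 differed little, 6.58% of all genes were called higher in Setd1aDel cells and 15.6% lower, as 591 and 1400 genes, against 974 and 717 after scaling. Of 16 antibacterial effectors 6 were higher and 3 lower, with Slpi at +1.96, Acod1 at +1.75 and Cybb at +0.73, against S100a8 at −0.63. Slc15a3 (+0.46) was the 1 peptidoglycan sensor called of 6. Of 12 transcription factors 2 were lower and 0 higher: Cebpa averaged 7.286 TPM in Setd1aDel and 17.02 TPM in wild-type cells (−1.12), opposite in sign to its change in the 16 h experiment, and Cebpb changed by −0.88. Spi1 was not called (−0.03). Of 14 macrophage markers 10 were higher and 2 lower, with Msr1 at +0.74 and Sirpa at −0.60, and their sum lay at 7963 to 8245 TPM in Setd1aDel and 6988 to 7152 TPM in wild-type cells.

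With LPS in the IFNB1 experiment, 17.7% of all genes were called higher in Setd1aDel cells and 24.9% lower, as 1934 and 2715 genes, against 2294 and 2251 after scaling. Of 16 antibacterial effectors 12 were higher and 2 lower, with Slpi at 375.5 TPM in Setd1aDel and 33.33 TPM in wild-type cells (+3.46), Mpeg1 at +1.52 and Lcn2, a protein that binds bacterial siderophores, at +1.44. Of 6 peptidoglycan sensors 3 were higher, led by Slc15a3 at +0.92, and 0 lower. Among 13 transcription factors 3 were higher, with Cebpe at +0.47, and 2 lower, with Spi1 at −0.41. Of 14 macrophage markers 8 were higher and 3 lower, with Fcgr3 at +2.60 against Adgre1 at −2.27, and their sum lay at 6847 to 7153 TPM in Setd1aDel and 4985 to 5219 TPM in wild-type cells. The 7 neutrophil markers listed summed to 7.2 to 8.3 TPM in Setd1aDel and 3.2 to 3.4 TPM in wild-type cells, where Mpo, Elane and Camp were listed at 0.

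The genes most like Lyz1 and Lyz2 were found by Pearson's r of log2(TPM + 1) over all libraries of an experiment. These libraries form groups of 3 and share their treatments and genotypes, so r describes the pattern of the groups. In BMDM, Il7r (r = 0.988), Cd84 (0.975), Abi3 (0.971), Mmp8 (0.969) and Cd68 (0.967) were most like Lyz2 over 18 libraries, and Ntpcr (0.898) and Hddc2 (0.896) led for Lyz1. In the 16 h experiment Gab2 (0.974) and Vcpkmt (0.97) led for Lyz2, and Lyz1 came next (0.965). In the 6 h experiment 3830403N18Rik (0.971) and Afdn (0.971) led for Lyz1 and Clec5a (0.975) for Lyz2 over 24 libraries, and in the IFNB1 experiment Tmem98 (0.995) and Plpp1 (0.994) for Lyz2 over 12. Lyz1 and Lyz2 had r = 0.608 with each other in BMDM, 0.965 in the 16 h experiment, −0.0305 in the 6 h experiment and 0.0442 in the IFNB1 experiment. This r was highest in the 16 h experiment. Within each genotype of the 6 h experiment, the means of both genes still ran in the same order of vehicle, Dex, LPS, and Dex with LPS. Of the 5 genes most like Lyz2 in BMDM, 1 was kept after scaling, and of the 5 most like Lyz1 there, 0. In the 16 h experiment 2 of 5 were kept for each gene, and Gab2 and Vcpkmt were lost for Lyz2. For each gene 4 of 5 were kept in the 6 h experiment. In the IFNB1 experiment 2 of 5 were kept for Lyz2, and Tmem98 was lost.

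The genes beside the pair on chromosome 10 changed with genotype over narrower ranges. The nearest protein-coding neighbours tested were Frs2 and Yeats4 beyond Lyz2, and Cpsf6 and Mdm2 beyond Lyz1. Over the 12 genotype comparisons Frs2 changed by between −0.34 and +0.20, Yeats4 by between −0.20 and +0.33, Cpsf6 by between −0.34 and +0.30, and Mdm2 by between −0.36 and +0.71. They passed the test in 2, 5, 3 and 8 of the 12, where between 13.6% and 64.6% of all genes were called. Lyz1 ranged from −6.14 to +2.28 and Lyz2 from −0.61 to +3.93 over the same comparisons. The difference between the pair and its neighbours was not tested.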

How the data were processed

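RNA-seq libraries of mouse BMDM and RAW264.7 cells were analysed from the authors' deposited tables. The values used are TPM per gene, made by the authors with Salmon 0.10.2 on GRCm38.p6, per the submitters' processing notes. The unit of the IFNB1 table was judged from its values. The authors' deposited tables also hold log2 fold changes, p-values and, as a score per gene, the mean normalized count over libraries.  R 3.6.0 and DESeq2 stand in the submitters' processing notes with no stated role.

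Genes reaching 1 TPM in 3 or more libraries of an experiment were tested with limma 3.58.1 (R 4.3.3) on log2(TPM + 1), with 1 mean per group, all groups of the experiment in the fit, trended variance, and Benjamini-Hochberg adjustment over all genes tested. A gene is called at an adjusted p under 0.05. In all, 35 comparisons were planned, and 5 in a joint fit were added after seeing the data. Shares were tested by exact permutation within strata. Genes were named by a rule: both members, the 5 genes most correlated with each, up to 4 called and 2 uncalled genes per list, chromosome neighbours and control genes, of which the text gives part and some are not reported here. The members and lists were chosen with earlier results of these data known. The fit was tested on simulated data. Alternatives were another pseudocount, no filter, median-of-ratios scaling, a replicate block, fewer groups, leaving out each library, and summing both genes. Sequences come from RefSeq and GENCODE for GRCm38.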

Additional observations from a re-analysis of the deposited data

Results flagged for a closer look

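Effects that differed between groups by a test of the difference itself are gathered here, all on the log2(TPM + 1) scale and by limma with adjustment over all genes tested. In the 16 h experiment the LPS response differed between Setd1aDel and wild-type RAW264.7 cells by −1.12 for Lyz1 and −1.88 for Lyz2. In the 6 h experiment it differed by −0.52 for Lyz2, and the Dex response under LPS differed by +0.37 for Lyz2. The Lyz1 difference in LPS response there was +0.82 (adjusted p = 0.0465), a call lost in 11 of 12 fits with 1 library left out, after scaling (adjusted p = 0.1), with the replicate number as a block (adjusted p = 0.0667) and with a pseudocount of 0.1 (adjusted p = 0.528).

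The next differences are between the 16 h and the 6 h experiment, from 1 fit of both chosen after seeing the data. Lyz1 stood among the genes tested through the wild-type libraries of the 6 h experiment, the group where it is high. The genotype change differed by +8.42 for Lyz1 and +3.55 for Lyz2 with vehicle. It differed by +6.48 and +2.19 with LPS, and by +6.38 and +2.04 with Dex and LPS. The LPS response differed by +1.77 for Lyz1 and +1.11 for Lyz2 in wild-type cells. In Setd1aDel cells it differed by −0.25 for Lyz2 (adjusted p = 0.028), which was −0.019 after scaling (adjusted p = 0.886), and 6 of 12 fits with 1 library left out lost the call.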

How the results depend on the processing

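The genotype changes of Lyz2 in BMDM, in the 16 h experiment and in the IFNB1 experiment, and of Lyz1 in the 16 h and 6 h experiments, kept their direction and call under another pseudocount, no filter, scaling, the block, fewer groups and each left-out library. Scaling gave −0.31 and −0.0036 for Lyz1 with LPS in Setd1bKO and control BMDM and −0.11 for Lyz2 in controls, turned Lyz2 with Dex under LPS in Setd1bKO and control BMDM to −0.079 and −0.069 (also for the summed pair), and ended the calls on the Lyz1 difference in LPS response in the 6 h experiment (0.70) and on the Lyz2 difference between experiments in Setd1aDel cells (−0.019). The cause was not tested. A pseudocount of 0.1 ended 2 calls on Lyz1 in the 6 h experiment, Dex in wild-type cells (−0.59) and the difference in LPS response (0.52). With only the compared groups in the fit, Dex under LPS in the 6 h experiment lost the Lyz2 call in Setd1aDel cells (−0.14) and gained the Lyz1 call in wild-type cells (−0.28).

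Because Lyz2 outweighs Lyz1, putting 1 summed value in place of both gave Lyz1 values near those of Lyz2, and in the 6 h experiment, where Lyz1 reached 3.97% of the pair, values further from them (+0.33 against +0.39 with vehicle): −0.58, −0.57 and −0.61 for genotype in BMDM, +0.33, +0.21 and +0.18 with vehicle, Dex and LPS, and Dex in the 6 h experiment, +1.07 and +1.01 in the IFNB1 experiment, 0.11 and 0.15 for Dex in BMDM, 0.65 and −0.29 for LPS and Dex in wild-type cells of the 16 h experiment, −0.14, −0.37 and −0.51 for Dex in the 6 h experiment, −0.48 and 0.36 for its differences in LPS and Dex response, −0.61 and −0.54 for IFNB1, and −0.25 between experiments. No Lyz2 call changed with the sum.

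Leaving out 1 library at a time, Lyz2 with Dex in Setd1bKO BMDM ran from 0.083 to 0.12, Lyz1 with LPS in wild-type cells of the 16 h experiment from 0.0050 to 0.35, and the Lyz2 difference between experiments from −0.33 to −0.19. In the 6 h experiment the Lyz1 difference in LPS response ran from 0.73 to 0.96, the Lyz2 genotype change with LPS from −0.16 to −0.10, Lyz1 with Dex alone in Setd1aDel cells from −0.59 to −0.24, and with Dex under LPS Lyz1 from −0.56 to −0.14 and Lyz2 from −0.18 to −0.090. The share of Lyz1 ran from −1.06 to −0.987 points with LPS and −0.458 to −0.383 with Dex in the 6 h experiment, and from 0.00587 to 0.0117 with IFNB1 (0.008745 with all libraries, adjusted p = 0.1, and called without wild-type LPS replicate 3, adjusted p = 0.03). Counts of called genes moved from 2350 to 1356 and 1219 to 668 for genotype with Dex and LPS and with Dex, and 475 to 305 for the Dex difference in the 6 h experiment, with only the compared groups, and from 1237 to 818 for the IFNB1 difference with no filter. With 1 library left out the last 2 ran from 278 and 553 upward, to at most 1876 for IFNB1.

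Replicate numbers are shared between groups and were not taken as pairs. Deviations of same-numbered libraries correlated between −0.322 and 0.278, and those of differently numbered libraries between −0.335 and 0.383. These values cannot tell whether libraries shared an animal or culture. With the replicate block the Lyz1 difference in LPS response in the 6 h experiment stayed at 0.82 and lost its call (adjusted p = 0.0667), and no other call on Lyz1 or Lyz2 changed. Depth limits Lyz1, whose level was under 1 TPM in wild-type cells of the 16 h experiment on average.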
